A study of Mus musculus with 8 samples.

Results

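The genes described here encode the NF-κB transcription factor subunits and the proteins that hold them back. They were read in the renal cortex of SPAK KO mice, which lack the kinase SPAK encoded by Stk39, and of their WT littermates. Each group had 4 arrays, 1 for each labelled mouse, all from 10-week-old C57Bl6J males fed a diet with 0.32% NaCl and 1% KCl. The labels name no other allele or agent, and they do not say which part of Stk39 was disrupted. The design text gives the aim as finding genes that cooperate to limit renal salt loss in the absence of SPAK. A list of 10 symbols was taken, and each gene was represented by the probe set annotated with that symbol alone and, of several, the one with the highest mean over all arrays. Of the 10, 9 were measured (each by 1 such probe set) among 19938 genes in all. Nfkb1 had no probe set annotated with its symbol alone and was not analysed here. The list was drawn up with the difference between SPAK KO and WT known. The members' own values, and the calls given for them, are therefore a description and not a test.

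NF-κB is a family of dimers built from Rela, Relb, Rel and the processed products of Nfkb1 and Nfkb2. In a resting cell the dimers are kept in the cytoplasm by IκB proteins, until the IκB kinase complex marks these for destruction and the dimers enter the nucleus. Several inhibitors are themselves NF-κB target genes, among them Nfkbia and Tnfaip3, which makes their transcripts part of a negative feedback loop. Nfkbia is also known to be induced by glucocorticoids. In the kidney the pathway is known mainly from tubular injury and inflammation.

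The promoters of 4 members are printed because they place the 2 feedback genes Nfkbia and Tnfaip3 beside 2 subunit genes. RefSeq windows of the 250 bases before a transcription start were at hand for 7 of the 10 members, in 10 windows of build GRCm38.p6. They were searched on both strands for the NF-κB consensus. It was found in 7 of the 10 windows, from 5 of the 7 members (Nfkbia, Nfkbie, Nfkb2, Rel and Tnfaip3), and in 7.25% of all 32851 windows of that length. Nfkbib and Rela had no match in their windows, and neither had the second of the 2 windows of Tnfaip3. The windows shown are chr12:55492648-55492897 (minus strand) for Nfkbia, chr10:19015411-19015660 (minus strand) for Tnfaip3, chr19:46304487-46304736 (plus strand) for Nfkb2 and chr19:5637291-5637540 (plus strand) for Rela. They read 5′ to 3′ along the gene, with bases that match the consensus in capitals.
Nfkbia: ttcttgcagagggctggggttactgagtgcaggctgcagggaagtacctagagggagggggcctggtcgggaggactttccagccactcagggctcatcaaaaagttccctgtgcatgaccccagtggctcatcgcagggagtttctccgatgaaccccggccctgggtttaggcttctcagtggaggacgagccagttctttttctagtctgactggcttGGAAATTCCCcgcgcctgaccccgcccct
Tnfaip3: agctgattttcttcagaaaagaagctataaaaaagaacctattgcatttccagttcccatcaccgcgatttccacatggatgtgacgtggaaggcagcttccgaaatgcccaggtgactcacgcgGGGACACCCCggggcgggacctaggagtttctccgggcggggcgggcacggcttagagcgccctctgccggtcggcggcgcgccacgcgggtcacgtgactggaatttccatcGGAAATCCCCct
Nfkb2: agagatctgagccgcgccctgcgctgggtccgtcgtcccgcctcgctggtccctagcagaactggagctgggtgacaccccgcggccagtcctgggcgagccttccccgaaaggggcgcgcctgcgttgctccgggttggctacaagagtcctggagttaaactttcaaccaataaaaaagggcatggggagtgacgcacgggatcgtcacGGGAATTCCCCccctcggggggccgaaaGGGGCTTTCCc
Rela: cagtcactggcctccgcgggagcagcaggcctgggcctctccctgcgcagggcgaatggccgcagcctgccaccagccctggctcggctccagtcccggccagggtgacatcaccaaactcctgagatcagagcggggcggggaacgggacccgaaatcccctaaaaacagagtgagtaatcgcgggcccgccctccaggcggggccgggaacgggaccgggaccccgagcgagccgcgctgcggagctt
The match in Nfkbia, GGAAATTCCC, begins 29 bases before the start, and the nearer of the 2 in Tnfaip3, GGAAATCCCC, begins 12 bases before it. The Nfkb2 window holds a pair of overlapping matches, which begin 39 and 38 bases before the start, and another that begins 11 bases before it. Of all windows, 1.03% held 2 or more matches. A match describes the letters only and does not show that the factor binds there.

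The values are log2 RMA expression values as deposited, so a difference of 1 is a 2-fold change. Levels are compared between arrays for the same gene, never between genes. Stk39 itself was lower on all 4 SPAK KO arrays, at 6.79 to 7.21, against 8.11 to 8.60 on the WT arrays. Some arrays were much more alike than others. Of the 6297 genes whose mean exceeded 8, only 1 to 10 were more than 0.4 apart in any of the 6 pairs of SPAK KO arrays, 3 were so between WT 2 and WT 3, and 119 to 228 in the other 5 WT pairs. WT 2 and WT 3 therefore enter each WT mean ± SD together, as a single sample (n = 3), while the SPAK KO values are shown array by array without an SD. P-values from the fit over 8 arrays measure the spread between these arrays, which on the SPAK KO side may be technical. Markers of the labelled tissue and of the medulla were read as well, to compare each list between arrays. Their levels do not measure how much of each tissue a sample held. The mean log2 value of 8 proximal tubule markers was 12.74 to 12.75 on the SPAK KO arrays and 12.72 to 12.77 on the WT arrays. That of 4 medulla markers was 7.81 to 7.88 in SPAK KO and 7.90 to 7.94 in WT. Subtracting each array's own median changed both readings. The proximal tubule means were then apart, at 6.62 to 6.66 in SPAK KO and 6.58 to 6.60 in WT. The medulla means then overlapped, at 1.71 to 1.79 in SPAK KO and 1.74 to 1.80 in WT.

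The widest differences were those of genes listed as inhibitors, though not of all of them. Nfkbia was about 2.24-fold higher in SPAK KO, Nfkbiz about 1.40-fold and Tnfaip3 about 1.22-fold, while Rela, Relb and Rel had overlapping groups. The inhibitor genes Nfkbib (1.07-fold) and Nfkbie (1.03-fold) lay below the subunit gene Nfkb2 (1.11-fold). Nfkbia encodes IκBα, the inhibitor that is degraded and made again within hours of a stimulus. It read 9.17, 9.08, 8.94 and 8.92 on SPAK KO arrays 1 to 4, against 7.61, 7.98, 8.05 and 7.81 on WT arrays 1 to 4. The lowest SPAK KO array lay above the highest WT array, and the WT arrays covered a wider span than the SPAK KO arrays. The difference was 1.16 ± 0.10 (limma SE, 8 arrays), or 1.22 with agreeing arrays counted once. WT averaged 7.81 ± 0.20 (SD, n = 3).

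Nfkbiz encodes IκBζ, an atypical nuclear family member that is itself induced by inflammatory signals and can activate as well as repress NF-κB genes. Its values were 7.32, 7.22, 7.20 and 7.20 on SPAK KO arrays 1 to 4, against 6.83, 6.61, 6.82 and 6.73 on WT arrays 1 to 4. The groups did not overlap, and SPAK KO 1 stood above the other 3 arrays of its group. The difference was 0.49 ± 0.06, or 0.48 with agreeing arrays counted once, set against a WT level of 6.76 ± 0.06 (SD, n = 3).

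Tnfaip3 encodes A20, a ubiquitin-editing enzyme that ends signalling from the TNF receptor and Toll-like receptors. It read 6.89, 6.69, 6.61 and 6.60 on SPAK KO arrays 1 to 4, against 6.48, 6.36, 6.29 and 6.495 on WT arrays 1 to 4. The groups did not overlap, but SPAK KO 4 and WT 4 lay only about 0.10 apart. Its difference was 0.29 ± 0.08, and it was 0.26 with agreeing arrays counted once.

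Nfkbib encodes IκBβ, which is resynthesised more slowly than IκBα. It gave 10.69, 10.61, 10.61 and 10.62 on SPAK KO arrays 1 to 4, against 10.59, 10.502, 10.52 and 10.51 on WT arrays 1 to 4. The groups were separated by a narrow gap, with SPAK KO 1 and WT 1 the highest of their groups. The difference of 0.10 ± 0.05 was close to 0.08, the span of the WT arrays. Nfkbie, which encodes IκBε, gave 6.20, 6.09, 6.31 and 6.31 in SPAK KO against 6.29, 6.0017, 6.08 and 6.36 in WT, so the groups overlapped. Its difference of 0.05 ± 0.09 turned to −0.0011 with agreeing arrays counted once.

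**Figure D1:**
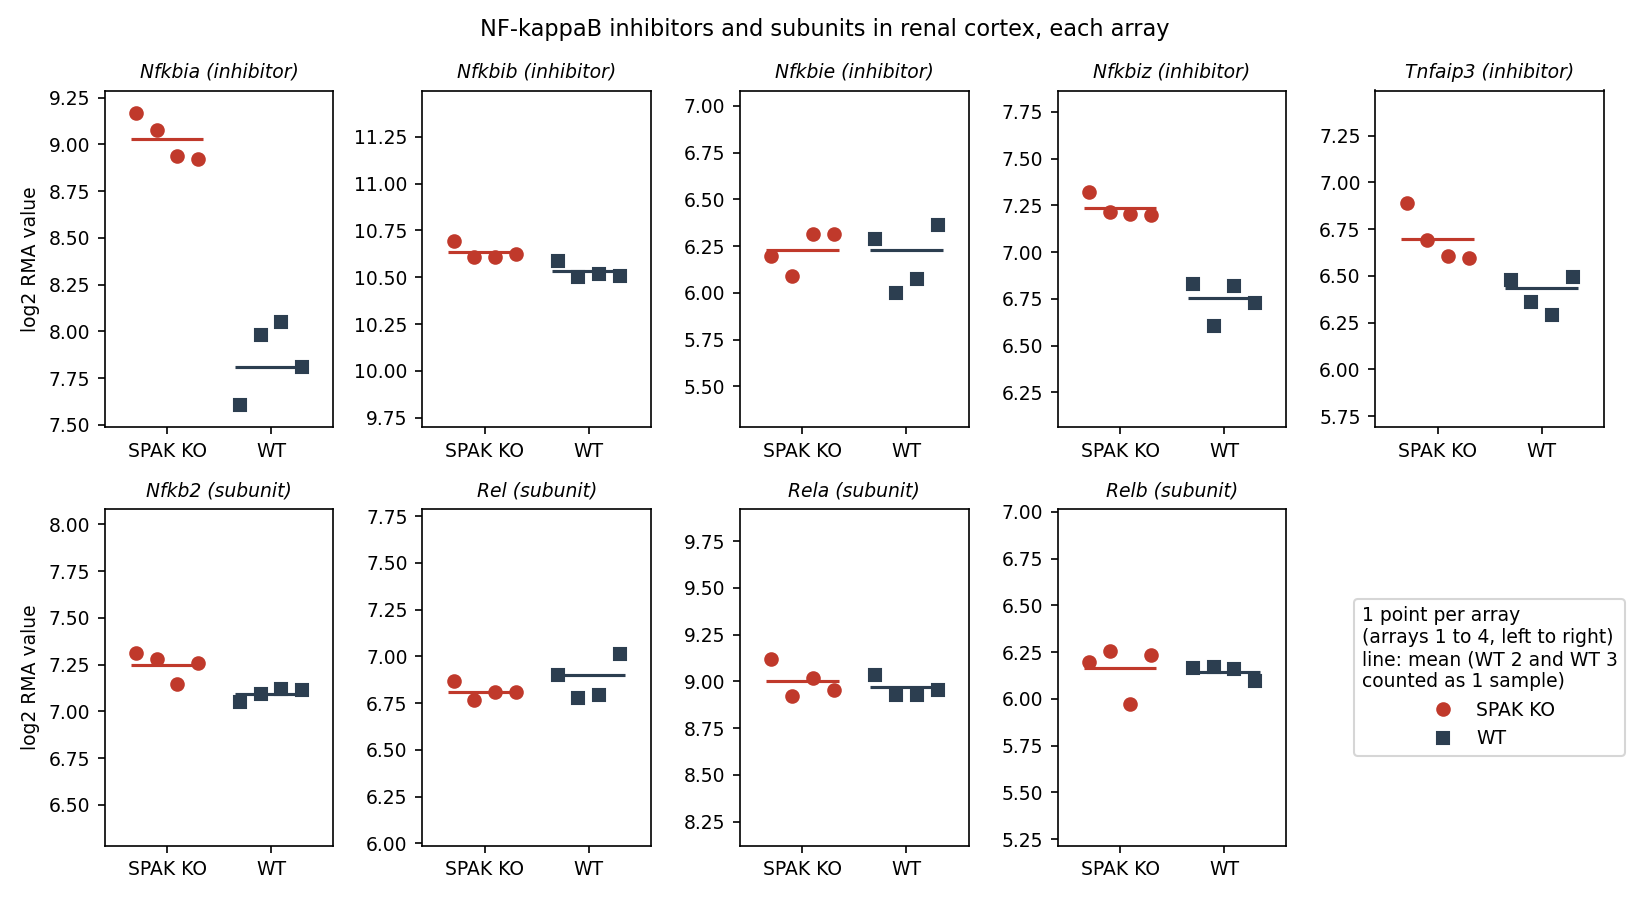
Log2 RMA values (vertical axes, each spanning the same range of log2 units) of the 9 measured genes, 1 point per array, with SPAK KO on the left and WT on the right of each panel. Horizontal lines are group means, with WT 2 and WT 3 counted as 1 sample. Nfkbia and Nfkbiz show the widest gaps between groups, with 8.92 against 8.05 and 7.20 against 6.83 as the nearest arrays.

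Among the subunits, Nfkb2 was the one whose groups did not overlap. It encodes p100, the precursor of p52 and a partner of Relb in the non-canonical pathway, which also retains dimers in the cytoplasm before it is processed. Its values were 7.31, 7.28, 7.15 and 7.26 on SPAK KO arrays 1 to 4, against 7.05, 7.09, 7.12 and 7.11 on WT arrays 1 to 4. SPAK KO 3 lay just above the highest WT array. The difference was 0.16 ± 0.05, or 1.11-fold.

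Rela encodes p65, the main activating subunit of the canonical pathway. It read 9.12, 8.92, 9.02 and 8.95 on SPAK KO arrays 1 to 4, against 9.04, 8.93, 8.93 and 8.95 on WT arrays 1 to 4, and the groups overlapped. Relb, the activating subunit of the non-canonical pathway, gave 6.1952, 6.26, 5.97 and 6.24 in SPAK KO against 6.16, 6.17, 6.16 and 6.096 in WT. SPAK KO 3 was the lowest and SPAK KO 2 the highest of all 8 arrays, so the SPAK KO arrays spanned the WT arrays. Rel, which encodes c-Rel, a subunit best known from lymphocytes, gave 6.87, 6.76, 6.81 and 6.81 in SPAK KO against 6.90, 6.78, 6.80 and 7.01 in WT, with overlapping groups. The differences were 0.04 ± 0.06 for Rela, 0.02 ± 0.07 for Relb and −0.06 ± 0.06 for Rel (limma SE, 8 arrays). Rel was the only member with a difference below 0 in that fit. Relb turned below 0 without SPAK KO 2 or SPAK KO 4, to as little as −0.01.

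**Figure D2:**
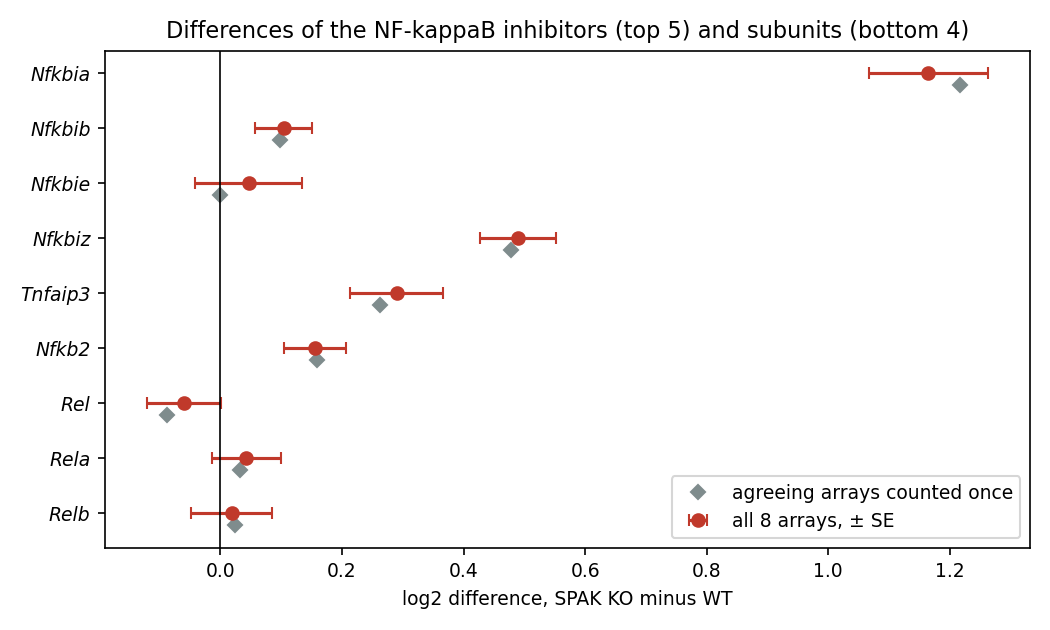
Log2 difference, SPAK KO minus WT (horizontal axis), of the 5 inhibitor genes (top) and 4 subunit genes (bottom). Red points with bars are the fit over 8 arrays ± SE, and grey diamonds count agreeing arrays once. Nfkbia lies at 1.16 and Nfkbiz at 0.49, and in the fit over 8 arrays Rel, Rela, Relb and Nfkbie lie within 0.06 of 0.

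Across the 9 measured members, 8 differences were above 0 and 1 below, with a median of 0.10, beside a median of −0.01 over all 19938 genes. The 5 inhibitors ran between 0.05 and 1.16 with a median of 0.29, and the 4 subunits between −0.06 and 0.16 with a median of 0.03. Nfkbiz was listed as an inhibitor and Nfkb2 as a subunit, although IκBζ can also activate and p100 also retains dimers. A gene was called when its limma p, Benjamini-Hochberg adjusted over all genes, was under 0.05. By that rule 2 members, Nfkbia and Nfkbiz, were called higher and 0 lower. Tnfaip3 was called higher as well, making 3, with arrays centred on their median or with genes of a mean under 6 left out. Of all genes 2.08% were called, 1.39% as higher and 0.682% as lower. Groups did not overlap for 5 members, all higher in SPAK KO, where 6.9% of all genes were higher without overlap. These counts come from the contrast that the members were chosen on. Nfkbia and Nfkbiz were called in all 8 fits that left out 1 array. In these fits their differences ran from 1.08 to 1.23 and from 0.44 to 0.52. Calls over all genes moved more, from 106 to 407 higher and from 50 to 218 lower. Because the SPAK KO arrays agree so closely, the fits add no independent support. With agreeing arrays counted once limma called 0 members, and 2 had an unadjusted p under 0.05. In that fit 618 of all genes had such a p, fewer than the 996.9 expected if no gene differed, and the unadjusted counts given from it for the lists stand beside that number. The arrays differed slightly in their medians over all 35556 probe sets, 6.09 to 6.12 in SPAK KO and 6.13 to 6.19 in WT. Centring each array on its median raised the members' median difference to 0.16 and that of all genes to 0.05.

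The members also differed in shape. As a measure of likeness, each gene's values were taken minus its own mean, and the root-mean-square difference between 2 genes was computed over the 8 arrays. Between members it was smallest for Nfkbib and Rela, at 0.05, and it was 0.14 for Nfkbiz and Tnfaip3. Nfkbia stood apart from each of the others, by 0.375 (Nfkbiz) to 0.64 (Rel). The measure mixes the size of a difference with its shape, so genes that varied little lie close together.

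Among the genes with a mean above 6, the 5 nearest to Nfkbia were Tmem252, Scd1, Zfp36, Rdh16f2 and Gadd45g, at 0.09, 0.13, 0.15, 0.16 and 0.18. Tmem252, a transmembrane protein gene, read 10.55, 10.35, 10.33 and 10.42 on SPAK KO arrays 1 to 4, against 9.15, 9.46, 9.53 and 9.37 on WT arrays 1 to 4. WT 1 was its lowest array and WT 3 the highest of the WT arrays, the same order as for Nfkbia. Zfp36 encodes tristetraprolin, which speeds the decay of mRNAs such as that of TNF. It read 10.01, 9.94, 9.95 and 10.02 in SPAK KO against 8.65, 9.24, 9.32 and 8.82 in WT, again with WT 1 lowest and WT 3 highest in WT. Scd1, a fatty acid desaturase gene, and Rdh16f2, a retinol dehydrogenase family gene with close relatives that could bind the same probes, also had their lowest value on WT 1. Gadd45g, a stress-response gene, had its lowest on WT 4. These genes were picked for profiles close to that of Nfkbia, so a like order of the WT arrays follows in part from the choice. The 8 arrays are not 8 independent points here, since the SPAK KO arrays agree so closely.

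**Figure D3:**
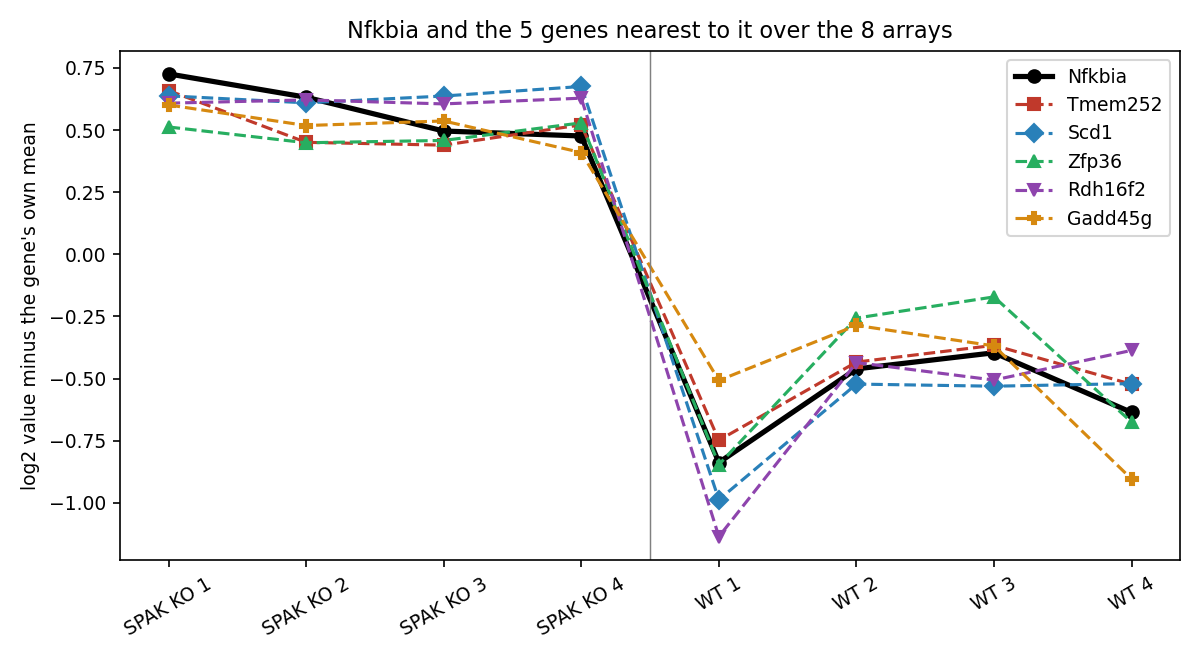
Log2 value minus the gene's own mean (vertical axis) on each of the 8 arrays, for Nfkbia (black) and the 5 genes nearest to it; lines only join the points of a gene. The SPAK KO arrays form a plateau and the WT arrays vary, with WT 1 lowest for Nfkbia, Tmem252, Zfp36, Scd1 and Rdh16f2 and WT 4 lowest for Gadd45g.

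The rest of the pathway was read from 4 lists of ligands and receptors, adaptors and kinases, other inhibitors, and target genes. They held 114 genes in all, of which 105 were measured. Of these, 1 was higher and 3 were lower in SPAK KO, and 101 were not called. Of all genes, 1.39% were called higher and 0.682% lower. Both shares also stand beside the counts of called genes given for each list below. The median difference was −0.0078, beside −0.01 over all genes. Groups did not overlap for 6 that were higher and 8 that were lower, where 6.9% and 5.71% of all genes had such groups. With agreeing arrays counted once, limma called 0 of the 105, and 4 had an unadjusted p under 0.05 (1 higher and 3 lower). With only WT 2 and WT 3 averaged, Ier3 was called (limma adjusted p = 0.0358), and the 3 lower genes, Malt1, Csf1 and Tap1, were not (0.0587, 0.0655 and 0.0660).

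Among ligands and receptors, 0 of 21 measured genes were called by limma, although 1 was higher and 4 lower at an unadjusted p under 0.05. The median difference was −0.05. Il1b, the gene of the cytokine interleukin-1β, read 5.07, 4.88, 5.34 and 5.02 in SPAK KO against 4.99, 4.81, 4.71 and 4.68 in WT, with overlapping groups and a difference of 0.28 ± 0.10 (limma adjusted p = 0.173). Tnfrsf11a, the gene of the receptor RANK, gave −0.27 ± 0.08 (limma adjusted p = 0.122), with groups that did not overlap. The main TNF receptor gene, Tnfrsf1a, and Tnf itself gave 0.07 ± 0.06 and −0.11 ± 0.09 and were not called; both were picked after their values were seen. Of this list 10 genes had a mean under 6, where RMA values come without a detection call.

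Of 29 measured adaptors and kinases, 1 was lower, 0 were higher and 28 were not called, with a median of 0.03. Malt1, a protease and scaffold that carries antigen receptor signals to the IκB kinase, read 8.01, 8.08, 8.02 and 7.98 in SPAK KO against 8.26, 8.36, 8.41 and 8.25 in WT. The groups did not overlap, and the difference was −0.30 ± 0.05 (limma adjusted p = 0.0229). Its call was kept in 2 of 8 fits that left out 1 array, those without WT 1 and without WT 4, and it was lost with arrays centred on their median (adjusted p = 0.0568). The catalytic IκB kinase gene Ikbkb and its regulatory partner Ikbkg gave 0.06 ± 0.07 and 0.07 ± 0.06, and Map3k14, the kinase NIK of the non-canonical pathway, gave 0.02 ± 0.07. None of these 3 was called. Chuk, the other catalytic subunit, was not measured by a probe set of its own symbol.

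Of 21 other IκB-like proteins and negative regulators, limma called 0, with 3 higher and 3 lower at an unadjusted p under 0.05 and a median of −0.04. Nkiras1, whose product binds IκB proteins and slows their breakdown, had the highest difference of the list, 0.44 ± 0.11 (limma adjusted p = 0.0784). It read 8.10, 8.05, 8.11 and 8.30 in SPAK KO against 8.06, 7.56, 7.54 and 7.64 in WT, so that WT 1 lay among the SPAK KO arrays. It was called without WT 1 (limma adjusted p = 0.0049), with arrays centred on their median (0.0265), with trend and robust options (0.0292) and with genes of a mean under 6 left out (0.0473). Bcl3 and Nfkbid, the atypical IκB genes related to Nfkbiz, gave −0.05 ± 0.07 and −0.09 ± 0.07 and were not called; they were picked after their values were seen.

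Among 34 measured target genes, 1 was higher, 2 were lower and 31 were not called, with a median of −0.04. Ier3, an early stress-response gene that limits cell death, was higher at 7.73, 7.66, 7.71 and 7.76 on SPAK KO arrays 1 to 4, against 7.22, 7.47, 7.49 and 7.23 on WT arrays 1 to 4 (difference 0.36 ± 0.07, limma adjusted p = 0.0335). Csf1, the macrophage growth factor gene, was lower at 6.04, 5.86, 5.92 and 5.81 in SPAK KO against 6.39, 6.28, 6.18 and 6.16 in WT (difference −0.35 ± 0.07, limma adjusted p = 0.0340). Tap1, a peptide transporter of antigen presentation, was lower at 7.15, 7.04, 7.01 and 6.98 in SPAK KO against 7.35, 7.29, 7.28 and 7.31 in WT (difference −0.26 ± 0.05, limma adjusted p = 0.0326). For all 3 the groups did not overlap. Each was called in 2 of 8 fits that left out 1 array, Ier3 without WT 2 or WT 3, and Csf1 and Tap1 without WT 4 or SPAK KO 1. Tap1 was not called with arrays centred on their median (limma adjusted p = 0.0668), nor Csf1 with a second quantile normalization (0.0647). With the replicate number as a block, Ier3 and Tap1 were not called (limma adjusted p = 0.0913 and 0.0819), nor was Malt1 (0.0627).

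Of the target list 13 genes had a mean under 6. The chemokine gene Ccl2, the adhesion molecule genes Icam1 and Vcam1, the cytokine gene Il6 and the acute-phase gene Lcn2 gave −0.09 ± 0.09, 0.01 ± 0.06, 0.14 ± 0.09, −0.03 ± 0.06 and −0.14 ± 0.10, and none of them was called over 8 arrays. Lcn2 was called lower without WT 4. The chemokine gene Cxcl1 had groups that did not overlap, at 6.69 to 7.12 in SPAK KO and 6.05 to 6.66 in WT, but its difference of 0.43 ± 0.13 was not called (limma adjusted p = 0.121), except with the replicate number as a block. Pigr, which carries antibodies across epithelia, had the widest difference of the list, 0.53 ± 0.22 (limma adjusted p = 0.224), and its WT arrays ran from 7.93 to 9.15. These 7 genes were picked after their values were seen.

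**Figure D4:**
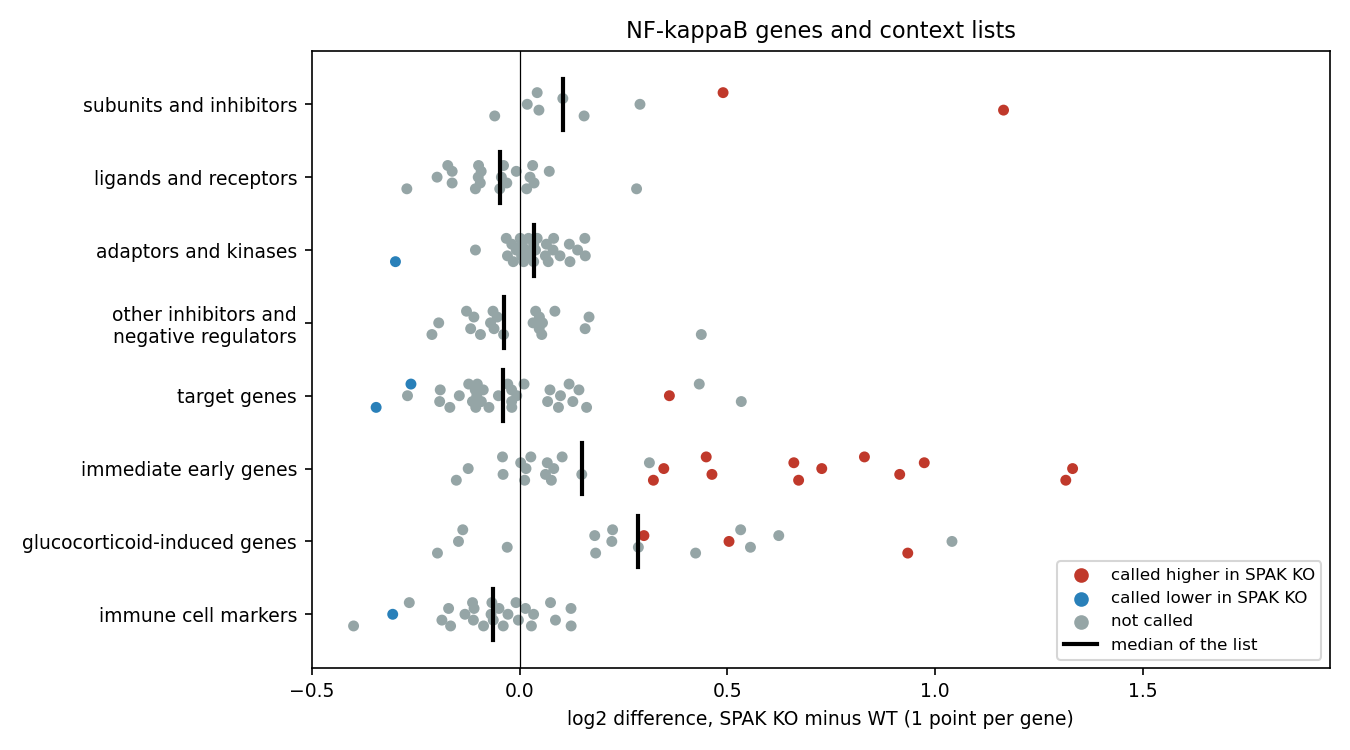
Log2 difference, SPAK KO minus WT (horizontal axis), 1 point per gene, for the 9 subunits and inhibitors (top row), the 4 lists of other NF-κB genes, and lists of immediate early genes, glucocorticoid-induced genes and immune cell markers. Red points were called higher in SPAK KO, blue points lower and grey points neither, and black bars are list medians. Calls are many among immediate early genes (12 of 27 higher) and few in the other lists. The lists were chosen with earlier results of these data known.

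Gene lists of other rapid responses were read beside the members. They were chosen with earlier results of these data known, so their counts beside the share of all genes are a description. Of 27 immediate early genes, which are transcribed within minutes of a stimulus, 12 were higher and 0 lower, with a median of 0.15, beside 1.39% of all genes called higher. Fos, Egr1 and Id1 rose by 0.73 ± 0.05, 0.92 ± 0.07 and 1.33 ± 0.16 (limma adjusted p = 5.6e-04, 5.6e-04 and 0.0045). The other 15 genes that were not called included 1 lower at an unadjusted limma p under 0.05. Their relatives Fosb and Egr3, picked after their values were seen, lay below 0 at −0.12 ± 0.09 and −0.15 ± 0.07. Zfp36, among the genes nearest to Nfkbia, belongs to this list, and so does Btg2, the third nearest to Nfkbiz (0.05). Between 9 and 12 of the list were called in the fits that left out 1 array, and limma called 0 with agreeing arrays counted once, where 12 had an unadjusted p under 0.05.

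Of 17 measured glucocorticoid-induced genes, 3 were higher and 0 lower, with a median of 0.29. They were Errfi1, Sgk1 and Per1, at 0.30 ± 0.05, 0.504 ± 0.09 and 0.93 ± 0.18 (limma adjusted p = 0.0152, 0.0209 and 0.0266). That count was 6 with arrays centred on their median and 5 with trend and robust options. It was 1 without WT 2 or SPAK KO 1, 5 without WT 1, and 0 by limma without SPAK KO 2, 3 or 4, where 8, 9 and 10 genes had an unadjusted p under 0.05 and were higher. With agreeing arrays counted once limma called 0, and 5 had an unadjusted p under 0.05. The list's mean log2 value was 9.21 to 9.23 on SPAK KO arrays and 8.70 to 9.01 on WT arrays. Groups did not overlap for 8 that were higher and 1 that was lower, beside 6.9% and 5.71% of all genes. The lower gene was Fkbp5, at −0.14 ± 0.06. Mt1, Mt2 and Lpin1 were also below 0, at −0.15 ± 0.10, −0.20 ± 0.08 and −0.03 ± 0.08, with overlapping groups. The part of these responses in the values of Nfkbia was not tested.

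Immune cells express several members strongly, so their markers were read beside them. Of 26 measured immune cell markers 0 were higher and 1 was lower, Cd3e of T cells (−0.31 ± 0.07, limma adjusted p = 0.0443, called in 1 of 8 fits that left out 1 array). At an unadjusted limma p under 0.05, 6 were lower and 0 higher. Nkg7, picked after its values were seen, gave −0.40 ± 0.10 without overlap (limma adjusted p = 0.0742). It was called lower with trend and robust options and with genes of a mean under 6 left out. The list's mean log2 value was 6.74 to 6.80 on SPAK KO arrays and 6.83 to 6.86 on WT arrays, lower on every SPAK KO array, and its median difference was −0.06. The SPAK KO arrays also had the lower medians over all probe sets, while the median difference over all genes was −0.01. Taken minus each array's own median, the list's mean was 0.62 to 0.71 in SPAK KO and 0.66 to 0.71 in WT, so the groups overlapped. With arrays centred on their median limma called 0 immune markers, with 3 higher and 3 lower at an unadjusted p under 0.05. In whole cortex, fewer cells of a type and less RNA per cell cannot be told apart. Of 8 endothelial markers limma called 0 (median −0.02), with 1 lower at an unadjusted p under 0.05. It likewise called 0 of 8 stromal and smooth muscle markers (median 0.01), with 2 higher and 1 lower at an unadjusted p under 0.05. Minus each array's own median, the mean of the stromal list was 1.58 to 1.66 in SPAK KO and 1.49 to 1.55 in WT. Of 6 distal tubule markers 2 were lower and 0 higher. They were Pvalb, a calcium-binding protein gene of the distal convoluted tubule, at −1.30 ± 0.09, and Trpm6, a magnesium channel gene, at −0.63 ± 0.10 (limma adjusted p = 3.5e-04 and 0.0123). Both were called in all 8 fits that left out 1 array, and with the replicate number as a block only Pvalb was. The list's mean was 10.41 to 10.43 on SPAK KO arrays and 10.68 to 10.80 on WT arrays. Slc12a1 and Umod went the other way, at 0.24 ± 0.05 and 0.10 ± 0.04, with groups that did not overlap. Slc12a1 was not called over 8 arrays (limma adjusted p = 0.0520). It was called higher with median centring, trend and robust options, genes of a mean under 6 left out, or WT 4 left out. Slc12a3 and Calb1 gave −0.14 ± 0.05 and −0.21 ± 0.08, and neither these nor Umod were called. Of 4 podocyte markers limma called 0, with 2 higher and 0 lower at an unadjusted p under 0.05, and the list's mean was 7.90 to 8.003 in SPAK KO and 7.80 to 7.87 in WT, higher on every SPAK KO array. Of the 4 medulla markers 1 was lower, Aqp2, the water channel gene of the collecting duct (−0.29 ± 0.06, limma adjusted p = 0.0447, called in 1 of 8 fits that left out 1 array and not with arrays centred on their median). The part of these cell types in the members' values was not tested.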

How the data were processed

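Total RNA from dissected renal cortex was measured on Affymetrix arrays, 1 per sample, from 6 µg of RNA per the labels' protocols. The deposited table holds log2 expression values. Per the submitters' processing notes, the authors used Affymetrix Expression Console and its RMA method. The version, genome build and any filter are not given in the sources used here. RMA corrects for background, brings the arrays to a common distribution and combines the probes of a probe set, with no detection call. The table held 35556 probe sets, of which 21789 carried exactly 1 symbol in the platform annotation, 1621 several and 12146 none. The probe set with the highest mean stood for each of 19938 genes.

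The comparison used limma 3.58.1 under R 4.3.3 (functions lmFit and eBayes, genotype as the only term, 8 arrays) and p-values were Benjamini-Hochberg adjusted over all genes. SE is the moderated standard error. The fit was tested on simulated data with 200 changed genes. The number of separate RNA samples limits the precision. Same-numbered arrays were checked for pairing, and the labels state none. The members and lists were chosen with earlier results of these data known. Genes named outside the members were the called genes of each pathway list without overlap (at most 6, or the 2 largest differences where fewer than 2 were called), the IκB kinase genes with Map3k14, up to 3 called genes of each context list, and the 5 nearest to Nfkbia. Alternatives were other normalizations, a filter on dim genes, the mean of a gene's probe sets, trend and robust options (statmod 1.5.0), a replicate block, arrays that agree averaged, and each array left out. Promoter windows are RefSeq's, build GRCm38.p6.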

Additional observations from a re-analysis of the deposited data

Results flagged for a closer look

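In groups of 4 arrays, an array was singled out when its gap to the nearest other array, divided by the range of the group passed the critical value of Dixon's test for 4 values. This was met in 6 of the 66 groups examined, and chance alone gives about 1 in 20. Nfkbiz read 7.32 on SPAK KO 1, above 7.20 to 7.22 on the other SPAK KO arrays, and Birc2, an adaptor gene, read 6.92 on SPAK KO 3, below 7.21 to 7.25. In WT, Relb read 6.096 on WT 4, below 6.16 to 6.17 on the others, and Map3k14 read 5.69 on WT 3, below 5.94 to 5.97. Scd1 and Rdh16f2, both near Nfkbia in profile, were low on WT 1, at 9.23 against 9.69 to 9.70 and at 7.98 against 8.61 to 8.73.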

How the results depend on the processing

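Over all genes, 278 were called higher and 136 lower. The counts were 673 and 88 with arrays centred on their median (which turned the split towards higher calls), 526 and 241 with trend and robust options, and 175 and 78 with WT 2 and WT 3 averaged. With genes of a mean under 6 left out, 462 were higher. With agreeing arrays counted once, limma called 0 in either direction, with 322 higher and 296 lower at an unadjusted p under 0.05 (618 together, where 996.9 are expected if no gene differed); that fit holds 1 SPAK KO sample, assumed to vary like WT. With the replicate number as a block there were 129 and 45, pathway genes called lower fell to 1, and the 1 called higher was Cxcl1 in place of Ier3; correlations of deviations of same-numbered arrays were between −0.129 and 0.133, so the numbers are not shown to pair the mice. Leaving out 1 array gave 106 to 407 higher and 50 to 218 lower genes, fewest without SPAK KO 1 and most without WT 4. Pathway genes called higher numbered 2 with centring, with the dim filter or with trend and robust options, 0 with agreeing arrays counted once, and 0 to 1 with 1 array left out. Those called lower numbered 1 with centring, 0 with WT 2 and WT 3 averaged or agreeing arrays counted once, and 0 to 4 with 1 array left out. The members' median difference was 0.16 with centring and 0.08 to 0.12 with 1 array left out. Over the 17 alternatives, Nfkbia kept differences of 1.08 to 1.23, Nfkbiz 0.44 to 0.55, Tnfaip3 0.23 to 0.35, Nfkb2 0.13 to 0.21 and Nfkbib 0.08 to 0.16, all above 0. Rel stayed below 0, at −0.09 to −0.0011. Nfkbie changed sign in 3 (lowest −0.01, without WT 2) and Relb in 2. Map3k14 reversed to −0.0041 with WT 2 and WT 3 averaged or agreeing arrays counted once, and ran from −0.0468 to 0.0487 with 1 array left out. The cause of these shifts was not tested.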
